A study of Mus musculus with 6 samples.

Results

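Malat1, Neat1, Kcnq1ot1, Rmrp, Rpph1, Rn7sk and Terc are noncoding RNAs that stay in the nucleus or form the RNA core of an enzyme or a ribonucleoprotein. They were chosen by name, 7 of the 54752 genes in the deposited values, and all 7 were found. Their levels were measured in RNA co-immunoprecipitated with FLAG-tagged LIN28B, an RNA-binding protein of fetal cells, and in the matching input. Cells came from 2 tet-LIN28B mice and 1 littermate control, each giving an input and an anti-FLAG IP, 6 libraries in all. The tet-LIN28B mice carry a FLAG-tagged human LIN28B cDNA behind a tetO promoter in Col1a, with the rtTAm2 activator in Rosa26. The control carries the rtTAm2 activator without the transgene, so that its IP holds RNA recovered without FLAG-LIN28B. All animals were adult and uninduced, and their whole bone marrow, freed of red and adherent cells, was kept for 5 days in medium holding IL-7 (20 ng/mL) and Dox, in every culture. Expansion in IL-7 favours B cell progenitors but does not purify them. The study calls the tet-LIN28B samples technical replicates in a single place. Elsewhere it speaks of biological replicates and of 2 tet-LIN28B mice, and the sample titles call these samples biological. If they are technical, the p-values below measure technical spread only.

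LIN28 proteins are best known for binding the precursors of let-7 microRNAs, in which their zinc knuckles recognise the bases GGAG, and they also bind many mRNAs in the cytoplasm. The RNAs described here work mainly in the nucleus. Malat1 concentrates in nuclear speckles, Neat1 builds paraspeckles, and Kcnq1ot1 is an imprinted antisense RNA that silences its neighbours in cis. Rpph1 is the RNA of RNase P, which trims the 5′ end of tRNAs, and Rmrp is that of the related RNase MRP, which takes part in rRNA processing. Rn7sk (7SK) holds the elongation factor P-TEFb inactive, and Terc is the template RNA of telomerase. Rmrp, Rpph1 and Rn7sk are transcribed by RNA polymerase III and end without a poly(A) tail. The mature 3′ ends of Malat1 and of long Neat1 are made by RNase P cleavage, after a genomically encoded A-rich stretch.

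Positions and sequences are those of GENCODE M21 on GRCm38, the same assembly as mm10. Every model named here is a single exon on the minus strand. Rpph1 lies at chr14:50807449-50807767 (319 nt), Rn7sk at chr9:78175303-78175633 (331 nt), Terc at chr3:96414437-96414859 (423 nt) and Rmrp at chr4:43492788-43493058 (271 nt). Malat1 lies at chr19:5795690-5802672, Neat1 at chr19:5824708-5845478, and Kcnq1ot1 at chr7:143203458-143296549 within the gene Kcnq1, antisense to it. The stretches of Rpph1 and Rn7sk below are shown because both RNAs differed between the genotypes and hold the letters GGAG, which are in capitals. Positions are counted from 1 at the 5′ end of the RNA, written with T for U.
Rpph1, positions 94 to 241: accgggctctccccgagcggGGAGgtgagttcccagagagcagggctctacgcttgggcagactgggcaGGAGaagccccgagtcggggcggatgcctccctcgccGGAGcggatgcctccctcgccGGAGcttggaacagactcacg
Rn7sk, positions 148 to 272: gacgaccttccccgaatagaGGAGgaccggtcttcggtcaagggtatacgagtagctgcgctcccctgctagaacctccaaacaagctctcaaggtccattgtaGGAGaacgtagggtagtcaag

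GGAG was searched on the RNA strand, with overlapping matches counted. Rpph1 held it 5 times, at positions 4, 114, 163, 200 and 221, the last pair at the ends of both copies of a tandem repeat of 21 bases, which start at 182 and 203. Rn7sk held it at 168 and 252, Terc at 174 and 192, and Rmrp not at all. Of transcripts at least as long, cut to the first 319 nt, 88.4% held GGAG at least once and 17.2% held it at least 5 times. Of those cut to 271 nt, 84.7% held it. The complementary letters CTCC occurred 6 times in Rpph1, 6 times in Rn7sk, 4 times in Terc and 1 time in Rmrp. In the long RNAs, GGAG occurred 49 times in Malat1 (7.02 per kb), 102 times in Neat1 (4.91 per kb) and 404 times in Kcnq1ot1 (4.34 per kb), against a median of 6.64 per kb over 134529 transcripts. These matches are letters only, and no binding at them was measured.

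The libraries were made with SMART-Seq v4, a kit that primes cDNA from poly(A) with oligo-dT and does not record strand. The study describes the IP as poly(A) RNA-seq and the input once as total RNA sequencing, while the labels give the same kit for all samples. Runs of A inside the members are therefore given beside their values. The longest run was 12 in Malat1, 7 in Neat1, 41 in Kcnq1ot1, 5 in Terc, 3 in Rmrp, 3 in Rn7sk and 2 in Rpph1. The following stretches show the A-rich part of Malat1, the 3′ end of long Neat1, and for contrast the 3′ ends of the polymerase III members of highest FPKM, with runs of at least 4 A in capitals.
Malat1, positions 6654 to 6715: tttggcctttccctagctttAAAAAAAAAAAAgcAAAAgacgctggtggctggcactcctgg
Neat1, positions 20712 to 20771: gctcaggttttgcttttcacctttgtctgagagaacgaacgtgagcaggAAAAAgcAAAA
Rpph1, positions 260 to 319: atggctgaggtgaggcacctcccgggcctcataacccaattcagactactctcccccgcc
Rn7sk, positions 272 to 331: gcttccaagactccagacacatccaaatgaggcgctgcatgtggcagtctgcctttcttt

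The deposited values are FPKM, fragment counts scaled to transcript length and library total, so they are levels per length as captured in these libraries. How well oligo-dT priming captures an RNA without a tail was not measured, so an order between untailed members and Malat1 or Neat1 is an order of captured FPKM only. Low values fell on steps of whole fragments, from which 14400000 to 21300000 fragments per library were estimated. The sum over all genes was 1144868 to 1384941 FPKM. All 10 B progenitor markers were at 1 FPKM or more in all 6 libraries. Of 13 markers of other marrow cells, 9 or 10 reached 1 FPKM in each input. Of the 10 tested, 9 were lower for IP over input in the tet-LIN28B mice, against 31% of all genes tested. Col1a1 and Cxcl12, which mark stromal cells, were at 0.06 FPKM or less in every library. The summed level of the 13 was 4513 and 2746 FPKM in the inputs of both tet-LIN28B mice and 3519 FPKM in the control input, against 1020, 584 and 1825 FPKM in the matching IPs. The part of these cells in the results was not tested. IP over input was tested for the 12576 genes whose inputs averaged 1 FPKM or more, as 6 of the 7 RNAs did. The median log2 ratio of all genes tested stood at -0.38 and -0.23 in the tet-LIN28B mice, against 0.04 in the control, and the values below are not corrected for this shift.

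In the inputs, Malat1 had by far the highest captured FPKM of these RNAs, followed by Rpph1, Rn7sk and Neat1. Malat1 was at 9222 and 5560 FPKM in the inputs of both tet-LIN28B mice and 5697 FPKM in the control input, ranks 14, 33 and 34 of all genes. Its neighbour Neat1 was 306, 315 and 235 times lower in the same libraries, at 30.1 and 17.6 FPKM in the inputs of both tet-LIN28B mice and 24.2 FPKM in the control input. Rpph1 was at 2162 and 1882 FPKM against 754 FPKM, ranks 115, 159 and 326. Rn7sk was at 467 and 241 FPKM against 284 FPKM. In every input these levels stood in the same order, Malat1, Rpph1, Rn7sk, Neat1, and none of their ranges over the 3 inputs overlapped. Rmrp, Terc and Kcnq1ot1 had low FPKM. Kcnq1ot1 was the lowest in every input, and the ranges of Rmrp and Terc overlapped. Rmrp was at 13.7 and 0.89 FPKM in the inputs of both tet-LIN28B mice and 4.88 FPKM in the control input. Terc was at 0.52 and 3.51 FPKM against 6.08 FPKM. Kcnq1ot1 was at 0.47 and 0.37 FPKM against 0.21 FPKM.

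**Figure D1:**
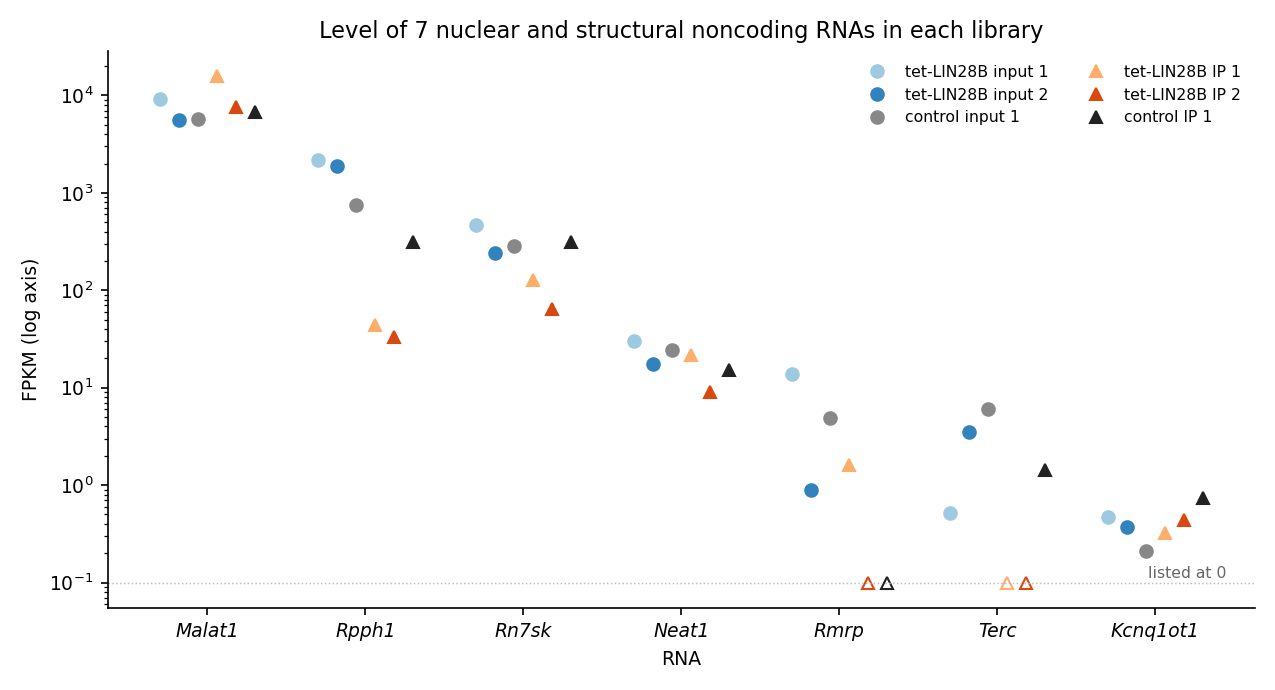
Level of each RNA in the 6 libraries, in FPKM on a log axis. Circles are inputs and triangles IPs, 1 point per library, and open triangles on the dotted line are values listed at 0. The tet-LIN28B IP levels of Rpph1, 43.7 and 33.4 FPKM, lie far under all 3 inputs, and those of Malat1 do not.

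Rpph1, the RNA of RNase P, was the member most depleted from the tet-LIN28B IP. Its level fell from 2162 FPKM in the input to 43.7 FPKM in the IP of the first tet-LIN28B mouse, and from 1882 to 33.4 FPKM in the other. In the control it was at 754 FPKM in the input and 315 FPKM in the IP. The IP thus held 0.0202 and 0.0177 of the input level in the tet-LIN28B mice, against 0.418 in the control. Both tet-LIN28B ratios lie under the control's, and the control's lies under 1. The values rest on an estimated 80 and 84.5 fragments in the tet-LIN28B IPs, against 4324 and 3293 in the inputs. The mean log2 ratio in the tet-LIN28B mice was -5.69 (SE 0.16, adjusted p = 0.00242, limma). Only 7 of the 12576 genes tested had a lower mean. Against the control the log2 difference was -4.43 (SE 0.27, adjusted p = 0.0363, limma).

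Rn7sk, the RNA that sequesters P-TEFb, was depleted from the tet-LIN28B IP to a lesser degree and was not lower in the control IP. It went from 467 to 128 FPKM and from 241 to 64.8 FPKM in the tet-LIN28B mice, ratios of 0.275 and 0.268. In the control it was at 284 FPKM in the input and 313 FPKM in the IP, a ratio of 1.10. The tet-LIN28B ratios were nearly equal and the control's lay above 1. The mean log2 ratio was -1.87 (SE 0.15, adjusted p = 0.00317, limma). Against the control the log2 difference was -2.01 (SE 0.26, adjusted p = 0.0474, limma). In the same tet-LIN28B mice, 1436 and 985 of all genes tested had a lower ratio than Rn7sk, against 7314 in the control.

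These were the 2 of the 6 RNAs tested that passed for tet-LIN28B minus control, and both were lower. Of all genes tested, 2.53% were lower and 2.91% changed in either direction. Of the genes that passed, 13.1% were higher, and 26.6% were after centring each mouse on its median. Both adjusted p-values stood close to the threshold of 0.05. They were 0.0754 for Rpph1 and 0.208 for Rn7sk with no replicate block, that is without pairing the IP and the input of a mouse, and 0.0941 for each at a pseudocount of 0.1. They were 0.0701 and 0.0787 without a trend, and 0.0736 and 0.0774 with no filter. After centring each mouse on its median, the call of Rn7sk was lost as well (adjusted p = 0.0546, limma). The size of the difference moved little, from -4.59 to -4.09 for Rpph1 and from -2.17 to -1.67 for Rn7sk over the alternatives tried. The genotype comparison has a single control mouse, whose spread was taken from the tet-LIN28B mice.

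The levels of Rpph1 and Rn7sk changed places between the fractions in the tet-LIN28B mice and were nearly equal in the control IP. In the inputs Rpph1 was 4.63 and 7.8 times the level of Rn7sk in the tet-LIN28B mice, against 2.65 times in the control. In the IPs it was 0.34 and 0.515 times the level of Rn7sk in the tet-LIN28B mice, against 1.01 times in the control. These ratios are taken within a library and do not depend on its total. The ratio of IP to input was lower for Rpph1 than for Rn7sk in all 3 mice, the control included.

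Malat1, the speckle RNA, had a higher IP than input level in all 3 mice. It was at 9222 FPKM in the input and 15821 FPKM in the IP of the first tet-LIN28B mouse, 5560 and 7632 FPKM in the other, and 5697 and 6728 FPKM in the control. Its ratios were 1.72 and 1.37 in both tet-LIN28B mice, with 1.18 for the control, all above 1. The mean log2 ratio of 0.62 in the tet-LIN28B mice (SE 0.19) missed the threshold in the fit (adjusted p = 0.0539, limma) and passed it under 5 of 9 alternatives with a test, such as 0.0292 after each mouse was centred on its median. The difference from the control was 0.38 (SE 0.33, adjusted p = 0.477, limma) and passed under 0 of those 9. Malat1 alone held 1.25% and 0.619% of all FPKM in the tet-LIN28B IPs and 0.588% in the control IP.

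Neat1, the architectural RNA of paraspeckles, was lower in the IP of every mouse. GENCODE M21 holds 4 Neat1 models of 711 to 20771 nt, and the deposited gene value does not tell long forms from short. Neat1 was at 30.1 FPKM in the input and 21.4 FPKM in the IP, 17.6 and 9.03 FPKM, and in the control 24.2 and 15.04 FPKM. The ratios were 0.711 and 0.512 in the tet-LIN28B mice, against 0.62 in the control, which lies between them. The mean log2 ratio was -0.68 (SE 0.20, adjusted p = 0.046, limma). It was -0.38 (adjusted p = 0.191, limma) when each mouse was centred on its median, and the call was lost under 6 of 8 alternatives. Against the control the log2 difference was -0.03 (SE 0.34, adjusted p = 0.959, limma), and 0.31 after centring. Malat1 and Neat1, encoded side by side, thus had ratios on opposite sides of 1 in all 3 mice.

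**Figure D2:**
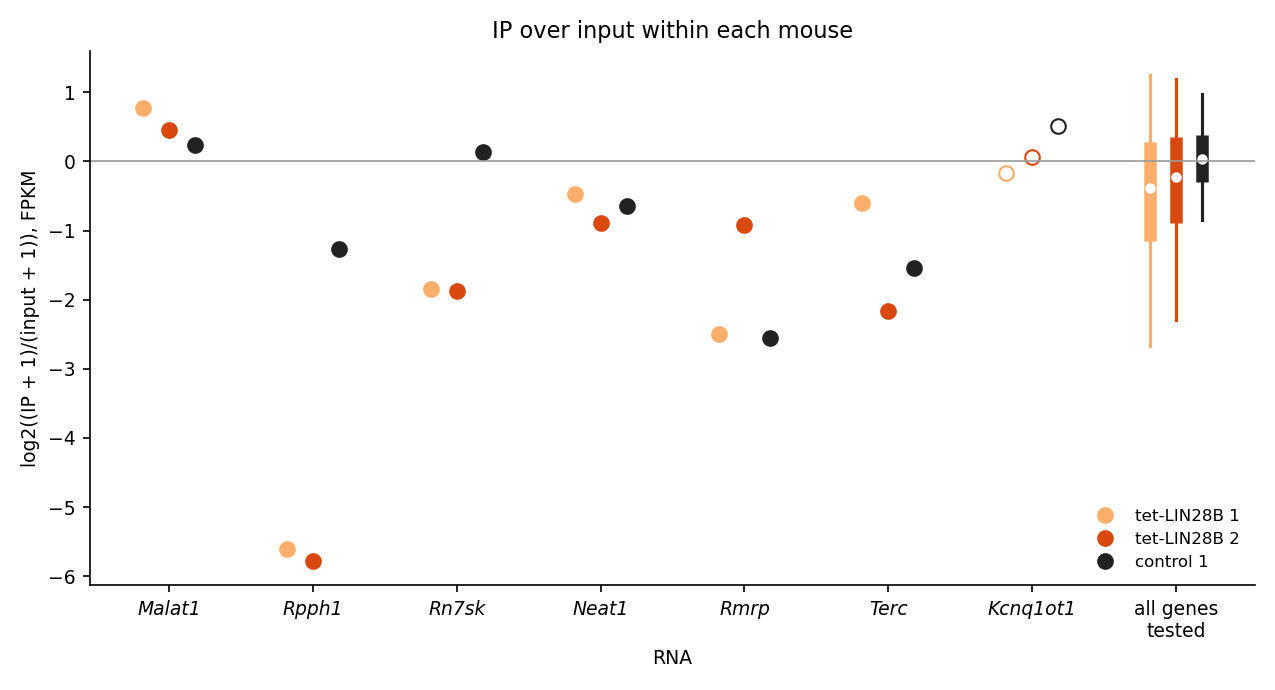
Log2 ratio of IP to input for each RNA in the 3 mice, with a pseudocount of 1 FPKM. Open circles mark Kcnq1ot1, which was not tested, and at right the thin bars span the 5th to 95th percentile and the thick bars the quartiles of all genes tested, with the median in white. Of the RNAs plotted, Rpph1 shows the widest gap between genotypes, at -5.60 and -5.78 in the tet-LIN28B mice, against -1.26 in the control.

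Rmrp and Terc had too few fragments for a firm ratio. Rmrp was at 13.7 FPKM in the input and 1.62 FPKM in the IP of the first tet-LIN28B mouse, and at 0.89 and 4.88 FPKM in the other inputs with both of those IPs listed at 0. This amounts to an estimated 18, 1.01 and 6.02 fragments in the inputs and 2.04 in the first IP. The mean log2 ratio of -1.70 (SE 0.43, adjusted p = 0.0345, limma) rests on such numbers. It was -0.92 without the first tet-LIN28B mouse and -2.49 without the other, and -3.15 at a pseudocount of 0.1. The call was lost under 3 of 7 alternatives, with adjusted p-values of 0.0683 at a pseudocount of 5 (log2 ratio -0.87), 0.274 with no replicate block and 0.317 with no filter, by limma. Against the control the difference was 0.85 (SE 0.75, adjusted p = 0.486, limma). GENCODE M21 holds an additional Rmrp model of 281 nt over the same bases, and reads may have been split between them, so its level is uncertain.

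Terc was at 0.52, 3.51 and 6.08 FPKM in the inputs, an estimated 1.97, 12 and 23.5 fragments. It was listed at 0 in both tet-LIN28B IPs, where 3 fragments would have given 0.923 and 0.696 FPKM, and at 1.43 FPKM in the control IP. The mean log2 ratio was -1.39 (SE 0.44, adjusted p = 0.0605, limma), and its size depends on the pseudocount, being -3.90 at 0.1 FPKM. The difference from the control, 0.15 (SE 0.77, adjusted p = 0.907, limma), became -1.89 at that pseudocount. IP over input passed only at that pseudocount (adjusted p = 0.0357, limma), under 1 of 7 alternatives with a test. Without the first tet-LIN28B mouse the difference from the control was -0.63, and without the other 0.94, so its direction is not settled at this depth.

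Kcnq1ot1 had a mean input of 0.35 FPKM and did not reach the input filter, so no test is given. It was at 0.32 and 0.44 FPKM in the IPs with FLAG-LIN28B and 0.73 FPKM in the control IP. The ratios were 0.681 and 1.19 in the tet-LIN28B mice, against 3.48 in the control. Spread over its model of 93092 nt, these levels stand for an estimated 415 to 975 fragments per library. The tet-LIN28B mice fell on both sides of 1, and both lay under the control. Kcnq1, in which it lies, was at 0 FPKM in 5 libraries and 0.05 FPKM in the control IP.

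In all, 4 of the 6 RNAs tested passed for IP over input in the tet-LIN28B mice. These were Rpph1, Rn7sk, Rmrp and Neat1, and all were lower. Of all genes tested 31% were lower, 13.9% were higher and 44.9% changed in either direction, so a passed test here is common. Of the genes that passed, 31% were higher, and 49.4% were when each mouse was centred on its median. Over the 6 RNAs the median log2 ratio was -1.55, against -0.32 over all genes. For tet-LIN28B minus control the median over the 6 was 0.06, against -0.39.

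The inputs alone ask whether LIN28B changed how much of each RNA the cultures held. Rpph1 was 2162 and 1882 FPKM in the inputs of both tet-LIN28B mice and 754 FPKM in the control input, a log2 difference of 1.42 (SE 0.18, adjusted p = 0.45, limma). The other members differed by 0.33 (Malat1), 0.24 (Rn7sk), -0.07 (Neat1), -0.16 (Rmrp) and -1.44 (Terc) on the log2 scale. No member passed, with adjusted p-values of 0.45 to 0.982, and 0% of all genes did by limma, with 5.41% at an unadjusted p under 0.05, among them Rpph1 (unadjusted p = 0.00369). In these bulk inputs, a change in the share of cells of a type and a change in the RNA of each cell cannot be told apart. Between the IPs alone, the control's level was 8.18 times the tet-LIN28B mean for Rpph1 and 3.24 times for Rn7sk.

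Other genes lie over or beside these RNAs, and unstranded reads cannot be told apart where they overlap. Gm37376 runs antisense inside Malat1 and was at 10822, 5800 and 8113 FPKM in the inputs and 14622, 6149 and 7720 FPKM in the IPs. Its ratios of 1.35, 1.06 and 0.952 followed those of Malat1 in order, with a log2 difference from the control of 0.33 (SE 0.33, adjusted p = 0.538, limma). Ccdc107, which overlaps Rmrp on the opposite strand, was at 148 to 154 FPKM in the inputs with ratios of 0.686 and 0.881 against 1.05. Of all 50-base windows of Rmrp, 33.8% also occur in Ccdc107 transcripts. Ccnb1ip1, a protein-coding gene whose transcripts hold 68.1% of the 50-base windows of Rpph1, was at 0.26 FPKM in a single input and at 0 in the other libraries. Parp2, a DNA repair enzyme gene that starts 74 bases from Rpph1, had ratios of 0.812 and 1.71 against 1.11 (log2 ratio 0.23, SE 0.29, adjusted p = 0.544, limma). C920006O11Rik, 281 bases from Rn7sk, had ratios of 0.102 and 0.298 against 1.14, at inputs of 1.01 to 1.81 FPKM (log2 ratio -1.03, SE 0.27, adjusted p = 0.0353, limma). Of the 50-base windows of Rn7sk, 68.1% recur in 7 other annotated genes, so that its reads may have been shared among copies. Frmd8os, 145 bases from Neat1, had ratios of 0.557 and 1.12 against 1.32.

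By Euclidean distance over the log2 ratios of the 3 mice, the gene most like Rpph1 was Snord118 (U8), a box C/D RNA needed for rRNA processing, at a distance of 0.23. It was at 43.6, 54.6 and 57.6 FPKM in the inputs, listed at 0 in both tet-LIN28B IPs and at 27.1 FPKM in the control IP. The next was Atp5g1, a subunit of ATP synthase, at 0.92. For Rn7sk the nearest were Alg8 (0.09) and Rce1 (0.12), protein-coding genes of glycosylation and prenyl protein processing. For Malat1 they were Zbtb12 and Tle4, both at 0.07, and for Neat1 the integrin gene Itgam (0.09) and AI463229 (0.10). For Rmrp they were the small Cajal body RNA Scarna3a (0.50) and the histone gene Hist1h2bp (0.56), and for Terc Rps12l1 (0.29) and Gm6061 (0.43). Where an IP was listed at 0, the log2 ratio is set by the input and the pseudocount alone. This holds for Snord118 and Terc in both tet-LIN28B mice and for Rmrp in the second tet-LIN28B mouse and the control. Distances that involve these RNAs therefore depend on the pseudocount. All the distances cover 3 mice only and are a description.

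Among other short structural RNAs, listed by name, several were depleted as strongly as Rpph1 or nearly so. Of 26 in the deposited values 16 were tested. In the tet-LIN28B mice 8 of the 16 were lower and 0 higher for IP over input (median log2 ratio -2.72, against -0.32 over all genes). Against the control 5 were lower and 0 higher (median -3.05, against -0.39). Of all genes tested, 31% were lower for IP over input and 2.53% were lower against the control. Rn7s1, an RNA of the signal recognition particle, was at 10622 and 5515 FPKM in the inputs of both tet-LIN28B mice and 0.84 and 313 FPKM in the IPs, and at 4635 and 4027 FPKM in the control. Its mice differed widely, with a log2 ratio of -8.31 (SE 1.96, adjusted p = 0.0284, limma) and a difference from the control of -8.11 (SE 3.40, adjusted p = 0.198, limma). Rn7s2, another RNA of that particle, went from 26981 to 539 FPKM and from 14039 to 784 FPKM in the tet-LIN28B mice. In the control it went from 11809 to 4832 FPKM. Its log2 difference from the control was -3.61 (adjusted p = 0.0606, limma). Whether reads were split between Rn7s1 and Rn7s2 was not tested. Snord118 had a log2 difference from the control of -4.58 (SE 0.33, adjusted p = 0.0429, limma), close to the -4.43 of Rpph1. Both tet-LIN28B IPs were listed at 0 for 6 of the 16, so their fitted sizes depend on the pseudocount and are not bounds. At the other end, Rnu2-10 and Rny3 had log2 ratios on both sides of 0 in the tet-LIN28B mice, 5.31 and -2.34 for Rnu2-10 and -3.80 and 4.57 for Rny3. Only 4 of the 16 were above 0 in all 6 libraries.

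**Figure D3:**
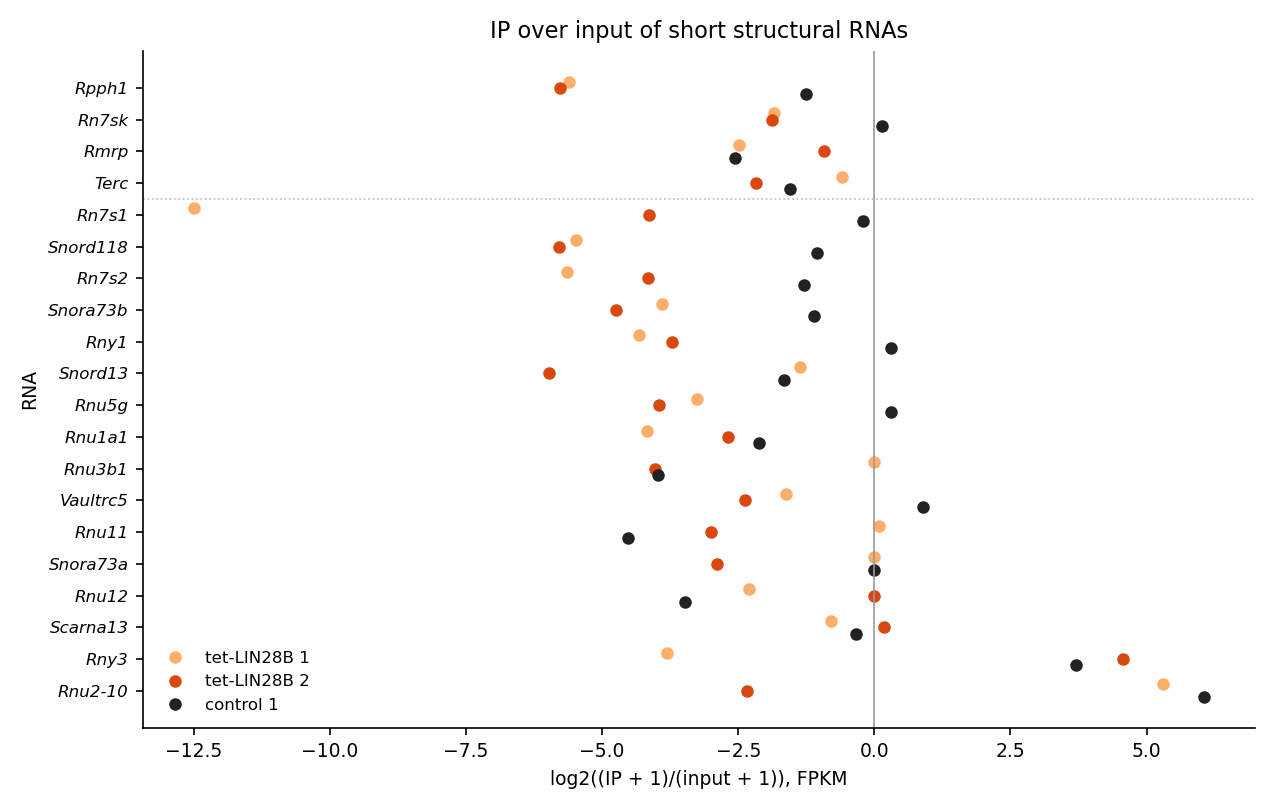
Log2 ratio of IP to input, with a pseudocount of 1 FPKM, for the 4 short members above the dotted line and the 16 other structural RNAs tested below it, ordered by their mean in the tet-LIN28B mice. Each point is 1 mouse, and a point at 0 can be an RNA listed at 0 in both fractions, as Rnu12 was in the second tet-LIN28B mouse. In 9 of the 16 both tet-LIN28B points lie left of the control's, and the same held for 60% of all genes tested.

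All 220 annotated genes of small structural RNAs that were tested had median log2 ratios of -1.78 and -0.98 in both tet-LIN28B mice, against 0.00 in the control. Of these, 66 were lower for IP over input in the tet-LIN28B mice, or 30%, near the 31% of all genes. A ratio below 1 in both tet-LIN28B mice was found for 78 of the 220, against 54.2% of all genes. Both ratios lay under the control's for 85 of the 220, against 60% of all genes. Against the control, 25 of the 220 were lower and 7 higher, with 2.53% and 0.382% of all genes. A short RNA can pass the input filter on 1 input alone, as the listed Snora73a did at 6.40 FPKM, with 5 libraries listed at 0. An RNA listed at 0 in both fractions has a log2 ratio of 0. How far the filter and such zeros shaped the medians and counts of this class was not tested. Among the 220, Rpph1 had the third lowest mean ratio. Transcript length moved with the ratio as well. Genes whose longest model was under 450 nt had medians of -1.09 and -0.91, against -0.01 and 0.12 for genes of at least 4000 nt, and in the control -0.11 and 0.27. Rpph1, Rn7sk, Rmrp and Terc all belong to the shortest class and Malat1 and Neat1 to the longest, and the part of length in their ratios was not tested. Rpph1 and Rn7sk lay below the median of this shortest class in both tet-LIN28B mice. Rmrp lay below it in the first (-2.49) and was level with it in the other, at -0.92 against -0.91. That last value of Rmrp rests on an estimated 1.01 fragments in the input and an IP listed at 0. Terc lay above the class median in the first (-0.60) and below it in the other (-2.17). Rpph1, Rn7sk and Rmrp had already passed as lower for IP over input, so their place against this median is a description only.

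Of 19 other nuclear lncRNAs in the deposited values 11 were tested, and 5 of these were lower and 0 higher for IP over input in the tet-LIN28B mice (median log2 ratio -0.65). Of all genes tested, 31% were lower and 13.9% higher. None passed against the control by limma (0 of 11, median -0.84). Airn, the imprinted antisense RNA of Igf2r, was at 4.45 and 5.85 FPKM in the inputs of both tet-LIN28B mice and 0.36 and 0.74 FPKM in the IPs, and at 2.10 and 1.71 FPKM in the control. Its log2 ratio was -1.99 (SE 0.23, adjusted p = 0.0054, limma). Ftx, from the X inactivation centre, had ratios of 0.266 and 0.263 against 0.814. Xist, the RNA that coats the inactive X chromosome, had ratios of 1.03 and 1.16 against 2.54, with a difference of -1.13 (SE 0.31, adjusted p = 0.1, limma). Tsix overlaps Xist on the other strand and its reads cannot be separated from those of Xist. Tsix had ratios of 1.49 and 1.39 against 2.35. Pvt1, the RNA beside Myc, had ratios of 1.67 and 1.53 against 1.68. Of the 11 tested, 8 had a log2 ratio below 0 in both tet-LIN28B mice, as Neat1 did, and Pvt1, Tsix and Xist lay above 0 in both, as Malat1 did. Of all genes tested, 54.2% lay below 0 in both.

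The mRNAs for the protein partners of these RNAs had ratios on both sides of 1. The counts below stand beside 31% of all genes lower and 13.9% higher for IP over input. Against the control these shares were 2.53% and 0.382%. Of 10 tested mRNAs for RNase P and RNase MRP proteins, 5 were lower and 1 higher for IP over input (median log2 ratio -0.46), and 0 passed against the control by limma. Rpp21 had ratios of 0.024 and 0.0796 against 0.561 (log2 ratio -4.28, SE 0.37, adjusted p = 0.00349, limma), and Rpp30 had 0.252 and 0.304 against 0.697. Rpp14 went up, with 2.58 and 2.26 against 0.954 (log2 ratio 1.26, SE 0.16, adjusted p = 0.00682, limma), and Rpp38 had 1.20 and 1.62 against 0.647.

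Of 7 mRNAs for 7SK and P-TEFb proteins, 2 were higher and 1 lower (median -0.06), and 0 passed against the control by limma. Ccnt1, cyclin T1 of P-TEFb, rose from 33.1 to 120 FPKM and from 26.7 to 103 FPKM in the tet-LIN28B mice, ratios of 3.62 and 3.85, and was at 21.1 and 64.3 FPKM in the control, a ratio of 3.05. Hexim1, the inhibitor that 7SK scaffolds, had ratios of 3.01 and 2.54 against 1.25 (log2 ratio 1.38, SE 0.18, adjusted p = 0.00701, limma). Ccnt2 had 0.641 and 0.613 against 1.08 (adjusted p = 0.03, limma). Mepce, which caps 7SK, had 0.723 and 0.623 against 1.35. Rn7sk and Hexim1 thus had ratios on opposite sides of 1 in the tet-LIN28B mice, while both lay above 1 in the control.

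Of 9 tested mRNAs for telomerase proteins, 2 were higher and 2 lower (median -0.19), and 0 passed against the control by limma. Naf1, an assembly factor of H/ACA particles, had ratios of 2.57 and 2.89 against 1.00, and Dkc1, dyskerin, 1.73 and 1.61 against 1.13. Nop10, a small H/ACA protein, had 0.196 and 0.222 against 0.673, and the ATPase gene Ruvbl2 0.145 and 0.483 against 1.26.

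Of 19 mRNAs for paraspeckle and speckle proteins, 9 were higher and 2 lower (median log2 ratio 0.71), and 1 was lower and 0 higher against the control. Srsf1, a splicing factor, had ratios of 2.69 and 2.77 against 1.65 (log2 ratio 1.44, SE 0.15, adjusted p = 0.00478, limma), and Rbm14 3.06 and 2.52 against 1.29. The speckle scaffold Srrm2 was at 423 and 325 FPKM in the inputs of both tet-LIN28B mice and 103 and 128 FPKM in the IPs, and at 351 and 660 FPKM in the control. Its difference from the control was -2.59 (SE 0.39, adjusted p = 0.0507, limma). Its partner Srrm1 had ratios of 0.347 and 0.387 against 1.46, a difference of -1.97 (SE 0.27, adjusted p = 0.0477, limma).

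Of 11 genes of the domain that Kcnq1ot1 governs, 5 reached the input filter. Cd81 (ratios 0.146 and 0.21 against 0.865) and Osbpl5 (0.31 and 0.173 against 1.17) were lower and Tssc4 (2.08 and 1.70 against 1.39) was higher for IP over input in the tet-LIN28B mice. Nap1l4 had ratios of 1.22 and 1.37 against 1.14. None of the 5 passed for tet-LIN28B minus control, by limma, or for the inputs.

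**Figure D4:**
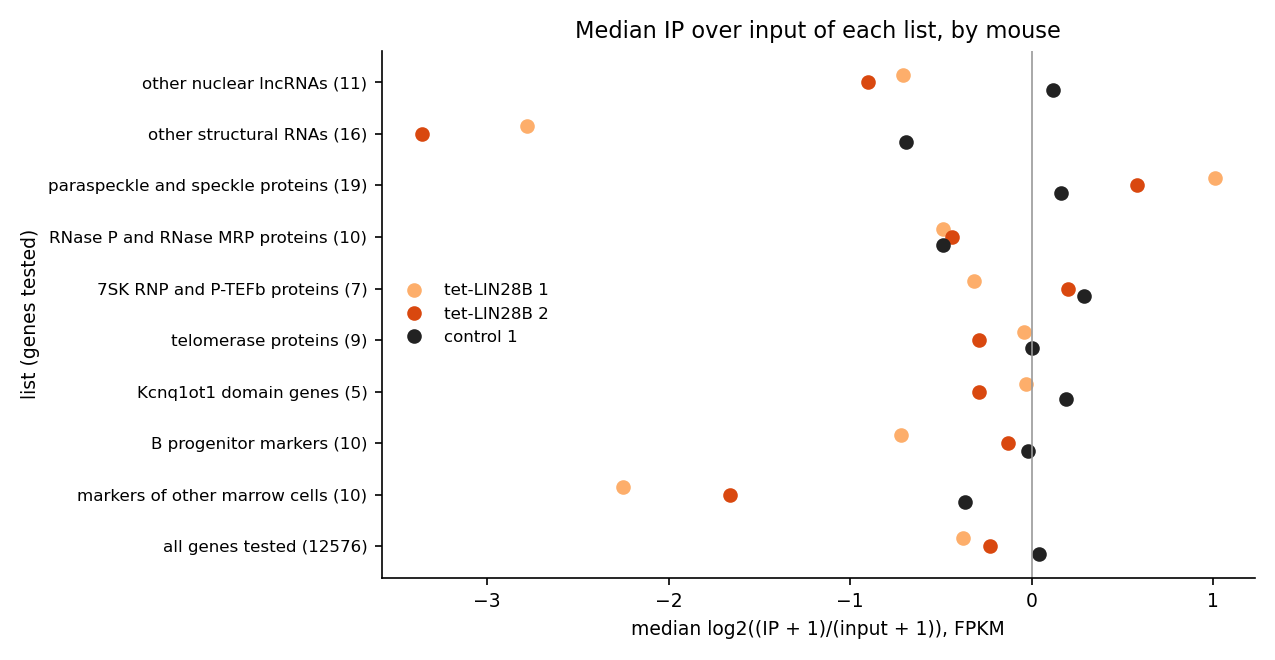
Median log2 ratio of IP to input of the genes tested in each list, 1 point per mouse, with the number tested in parentheses. The other structural RNAs lie at -2.78 and -3.36 in the tet-LIN28B mice, against -0.69 in the control, and the markers of other marrow cells at -2.25, -1.66 and -0.37, while the mRNAs for paraspeckle and speckle proteins lie above 0 in all 3 mice.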

How the data were processed

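RNA from the input and from the anti-FLAG IP was sequenced for 2 tet-LIN28B mice and 1 control. Reads were aligned to mm10 (STAR 2.7.1), and gene levels were estimated with RSEM 1.28 by the authors, who deposited them as FPKM. The sources used here do not give the annotation release. Titles and column names set the groups, while the last line of each description names the opposite fraction. The labels give the Dox dose in mg/mL and the study's methods in µg/mL.

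Members and gene lists were chosen with earlier results of these data known, and 1 listed gene is not reported here by name. Log2((IP + 1)/(input + 1)) was computed within each mouse and fitted by genotype with limma 3.58.1 (R 4.3.3), moderated with a trend and adjusted by Benjamini-Hochberg over the 12576 genes whose inputs averaged 1 FPKM or more. Inputs were fitted likewise on log2(FPKM + 1). There is 1 residual degree of freedom per gene (4.56 with the prior), so p-values reflect mainly the spread of all genes. Using the ratio makes the mouse a block, since both fractions come from the same animal. Between the tet-LIN28B mice, the difference in input and that in IP had a correlation of 0.132 over genes. Identical values were found in 0 of 15 pairs of libraries. Fragments were estimated from the steps between low FPKM values and a fitted fragment length (82% to 85.4% of low values of short genes lay within 0.15 of a whole number, against 30% if spread evenly). Counts and intervals that would need exact reads are not given. The script was tested on simulated data.

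Named genes were all members, the 2 nearest genes of each tested member, the 2 highest and 2 lowest of each list for IP over input, and genes overlapping or starting near a member. Xist and Rn7s2 were added to these. Alternatives concerned the filter, pseudocount, scaling, centring, trend and replicate block, and left out each tet-LIN28B mouse. Sequences were read from GENCODE M21 transcripts and were equal to GRCm38.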

Additional observations from a re-analysis of the deposited data

Results flagged for a closer look

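The difference between genotypes in IP over input stood out for Rpph1, with a log2 difference of -4.43 (adjusted p = 0.0363, limma), and for Rn7sk, with -2.01 (adjusted p = 0.0474, limma). In both cases the contrast of IP with input in the tet-LIN28B mice was tested against the same contrast in the control. For Rpph1 both fractions enter the difference. Its tet-LIN28B inputs were higher than the control's by 1.42 on the log2 scale, which did not pass. Its level in the control IP was 8.18 times the tet-LIN28B mean. Both tet-LIN28B mice lay below the single control mouse for each RNA, as they did for 60% of all genes tested.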

How the results depend on the processing

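Of 139 values of single RNAs under alternatives with a test, 110 were counted as unchanged, 20 lost a call, 6 gained one and 3 reversed. Unchanged values kept direction and side of the threshold. Those of Kcnq1ot1, tested only with no filter, had no side to keep and were counted by their size. The reversed ones, none of them past the threshold, were Neat1 against the control after centring (0.31), Terc against the control at a pseudocount of 0.1 (-1.89), and Rmrp in the inputs at a pseudocount of 5 (0.09). Rpph1 and Rn7sk were lower under each alternative, with log2 differences from the control of -4.59 to -4.09 and -2.17 to -1.67, but each passed under 4 alternatives only, of 8 for Rpph1 and 9 for Rn7sk. For IP over input in the tet-LIN28B mice both lost their call with no filter (adjusted p = 0.143 for each, limma) and kept it otherwise.

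Of the members, 4 passed for IP over input, and 2 did at 50 FPKM in the 4 tet-LIN28B libraries (2 members tested), 0 with no filter and 2 with no replicate block. Against the control 2 passed, and 1 did at 50 FPKM, 0 with no filter, 0 at a pseudocount of 0.1, 1 after centring, 0 without a trend and 0 with no replicate block. Of all genes, 1750 were higher and 3900 lower for IP over input. These counts were 522 and 512 at 50 FPKM and 0 and 0 with no filter, and 2908 were higher after centring. Against the control 48 were higher and 318 lower. These were 300 and 1130 at a mean input of 10 FPKM, 176 and 764 at a pseudocount of 5, 92 and 668 scaled to TPM, and 0 and 0 with no filter, at a pseudocount of 0.1, without a trend or with no replicate block. At 50 FPKM 339 were higher, and after centring 188 were lower. For the inputs 0 passed either way, against 13 higher and 5 lower at a mean input of 10 FPKM, 4 higher scaled to TPM, 18 higher and 14 lower after centring, and 5 lower at a pseudocount of 5. The alternatives change the genes tested or the values, and the cause of each shift was not tested.

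Leaving out a tet-LIN28B mouse gave 42 values with no test, of which 7 turned sign, none of a result that passed. Without the first mouse these were Kcnq1ot1 for IP over input (-0.04 to 0.07), Terc against the control (0.15 to -0.63), and Malat1 (0.33 to -0.03) and Rn7sk (0.24 to -0.23) in the inputs. Without the other they were Neat1 against the control (-0.03 to 0.18), and Neat1 (-0.07 to 0.30) and Rmrp (-0.16 to 1.32) in the inputs. Against the control the values ran from -4.52 to -4.34 for Rpph1, -2.02 to -1.99 for Rn7sk, 0.07 to 1.64 for Rmrp and -0.63 to 0.94 for Terc. For IP over input they ran from 0.46 to 0.78 for Malat1, -0.89 to -0.47 for Neat1, -2.49 to -0.92 for Rmrp and -2.17 to -0.60 for Terc. In the inputs Rmrp ran from -1.64 to 1.32. Depth limits Rmrp and Terc, which rest on at most 23.5 estimated fragments per library.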
